A study of Mus musculus with 26 samples.

Results

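The effect of deleting *Ahr*, the gene of the aryl hydrocarbon receptor (AhR), was examined in cultured sensory neurons of the mouse. The comparison took the 6 libraries whose labels give DRG neurons as the material, 3 labelled conditional knockout (cKO) and 3 labelled control, out of 26 libraries in the series (13 cKO and 13 control). Each came from the dorsal root ganglia (DRG) L4 to L6 of a mouse with its own number in the column name, and all 6 mice were female. The cKO mice carried *Ahr* alleles flanked by loxP sites and a transgene in which *Thy1* regulatory sequence drives CreERT2, a recombinase switched on by tamoxifen, together with the yellow fluorescent protein EYFP. The controls carried the same loxP-flanked alleles without the transgene, so both groups share them; the label "WT" of the controls stands beside a genotype given as Ahr fl/fl. Ganglia were dissociated 2 to 4 h after lights on and the cells, described as semi-purified neurons, were collected 24 h after seeding. The series' text gives tamoxifen (100 mg/kg on 5 days at 28 weeks of age, 5 weeks before collection) for the naive and injured mice. Neither tamoxifen nor an age is stated for the mice of the neuron libraries. The other 20 libraries are whole ganglia of naive mice and of mice after nerve crush or sham surgery.

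AhR is a ligand-activated transcription factor that waits in the cytoplasm with heat shock protein 90 and the co-chaperone p23. Once bound by a ligand it enters the nucleus, pairs with ARNT and binds short DNA elements near genes such as *Cyp1a1*, *Cyp1b1*, *Tiparp* and *Ahrr*, the last of which encodes its repressor. AhR and ARNT belong to the same protein family as the clock factors BMAL1 and CLOCK and the hypoxia factor HIF-1-alpha. Dissociating a ganglion cuts every axon, so neurons in culture are injured neurons that regrow their processes.

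Total counts were 25299938, 88180611 and 60139821 in control replicates 1, 2 and 3 and 83985896, 76633097 and 76135830 in cKO replicates 1, 2 and 3. Control replicate 1, the shallowest, also stood apart on the first principal component, which held 49.2% of the variance (a score of 76.4 against -21.5 to -2.89 in the other 5). Named genes that passed the threshold of the test below without it are given as such, and many list counts are also given without it. All 15 neuron markers were detected in every library, with a summed level of 6961 to 8847 CPM (the count relative to the library's scaled total) in control and 8391 to 8643 CPM in cKO. Markers of other cells were present too: those of satellite glia summed to 1993 to 3156 CPM, of endothelial cells to 1261 to 1923 CPM and of Schwann cells to 638 to 793 CPM. In such mixed cultures, fewer cells of a type and less RNA per cell cannot be told apart. Nothing says that the cultures were separate beyond the mouse numbers, so the p-values measure the spread between these libraries.

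The targeted gene was counted at the same level in both genotypes. *Ahr* (ENSMUSG00000019256.17, chr12:35497974-35535038 on the minus strand of GRCm38) had 56.1, 51.7 and 44.7 CPM in control replicates 1, 2 and 3 and 44.3, 56.6 and 46.4 CPM in the cKO replicates. The groups overlapped, with cKO replicate 2 the highest of all 6, and the cKO mean differed from the control mean by -0.05 on the log2 scale (SE 0.116, adjusted p 0.917). Reads were counted over the whole gene, introns included, in cultures that hold other cells, so this value does not check the labels, and "cKO" below means the libraries labelled so.

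edgeR's quasi-likelihood test called 0 of 23295 genes (0%) at the threshold, an adjusted p of 0.05, and its smallest adjusted p was 0.0747. Before adjustment, p was under 0.05 for 1863 genes (8% of those tested), 966 higher (4.15%) and 897 lower (3.85%) in cKO. The 3 cKO libraries lay entirely above the 3 control libraries for 7.54% of genes and entirely below them for 7.69%. DESeq2 called 165 genes (76 higher, 89 lower), limma-voom with sample quality weights 29, and limma on the deposited FPKM 1. Without control replicate 1 edgeR called 15 genes and without control replicate 3 it called 6, while leaving out any other library gave 0. Before adjustment the counts also moved: they were 1940 higher and 1469 lower without control replicate 3, 465 and 574 without cKO replicate 2, 688 and 627 without cKO replicate 1 and 683 and 502 without cKO replicate 3. With all 6 neuron libraries no difference between the genotypes passed the threshold of the edgeR test, and the words higher and lower give only the position of the neuron libraries.

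The 12 genes higher in cKO with the smallest p-values were led by *Nlgn1* and *Mchr1*. *Nlgn1* (ENSMUSG00000063887.13, chr3:25426215-26332460, minus strand), which encodes neuroligin-1, a synaptic adhesion molecule that binds neurexins, had 14.5, 14.6 and 17.1 CPM in control and 29.9, 29.9 and 30.5 CPM in cKO. Each cKO library was well above the highest control, and the replicates of each group lay close together (log2 fold change 0.97, SE 0.0866, adjusted p 0.0747). It passed the threshold without control replicate 1 (adjusted p 0.0296) and without control replicate 3 (0.029). *Mchr1* (ENSMUSG00000050164.11, chr15:81235499-81238964, plus strand), the receptor of melanin-concentrating hormone, was scarce, at 0.567, 0.682 and 0.798 CPM in control and 2.34, 2.21 and 2.33 CPM in cKO. Its groups were far apart for so low a level (log2 fold change 1.72, SE 0.178, adjusted p 0.078), and it too passed without control replicate 1 (adjusted p 0.0339).

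*Etv5* (chr16:22381309-22439719, minus strand), an ETS-family transcription factor, had 55.6, 60.6 and 60.7 CPM in control and 85.2, 90.6 and 81.9 CPM in cKO (a log2 fold change of 0.54, SE 0.0686, adjusted p 0.1003). *Ptgir* (chr7:16906490-16910905, plus strand), the prostacyclin receptor, had 19.1, 24.97 and 21.2 CPM in control and 39.4, 46.5 and 35.8 CPM in cKO (0.89, SE 0.127, adjusted p 0.144). Both were separated between the genotypes by more than the range within either group. *Gap43* (chr16:42248442-42340651, minus strand), a growth cone protein of regrowing axons, had 69.5, 78.2 and 72.3 CPM in control and 105, 139 and 106 CPM in cKO, with cKO replicate 2 the highest (0.67, SE 0.117, adjusted p 0.276). The remaining genes of this group were *Serpinb8* (a protease inhibitor, log2 fold change 0.73), *Slc5a7* (the choline transporter, 1.44), *Fxyd7* (a regulator of the sodium pump, 0.47), *Prkcb* (protein kinase C beta, 0.79), *Fam210b* (0.36), *Htr1b* (a serotonin receptor, 0.89) and *Thy1*. *Htr1b* is uncertain, since a gene that overlaps it was counted at 51.8% of its level.

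*Thy1* (ENSMUSG00000032011.5, chr9:44043384-44048579, plus strand), whose regulatory sequence drives the transgene, had 262, 311 and 454 CPM in control and 673, 735 and 664 CPM in cKO. Control replicate 3 lay closest to the cKO libraries, and without it *Thy1* passed the threshold (log2 fold change 1.27, adjusted p 0.029, against 1.01, SE 0.182 and adjusted p 0.298 with all 6 libraries). *Cadps* (ENSMUSG00000054423.14, chr14:12372563-12823079, minus strand), a protein that primes dense-core vesicles for release, had 250.1, 284 and 349 CPM in control and 176, 160.3 and 181 CPM in cKO (a log2 fold change of -0.77, SE 0.121, adjusted p 0.198). All cKO libraries lay below all controls. Of the 16 nearest annotated genes around *Cadps*, 7 were tested and 1 had an unadjusted p under 0.05, *Gm48239*, which is annotated antisense inside *Cadps* and was lower too (-0.84). Without a stated strand setting, its reads and those of *Cadps* cannot be told apart. Around *Thy1*, 11 of 16 were tested and 0 had such a p.

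**Figure D1:**
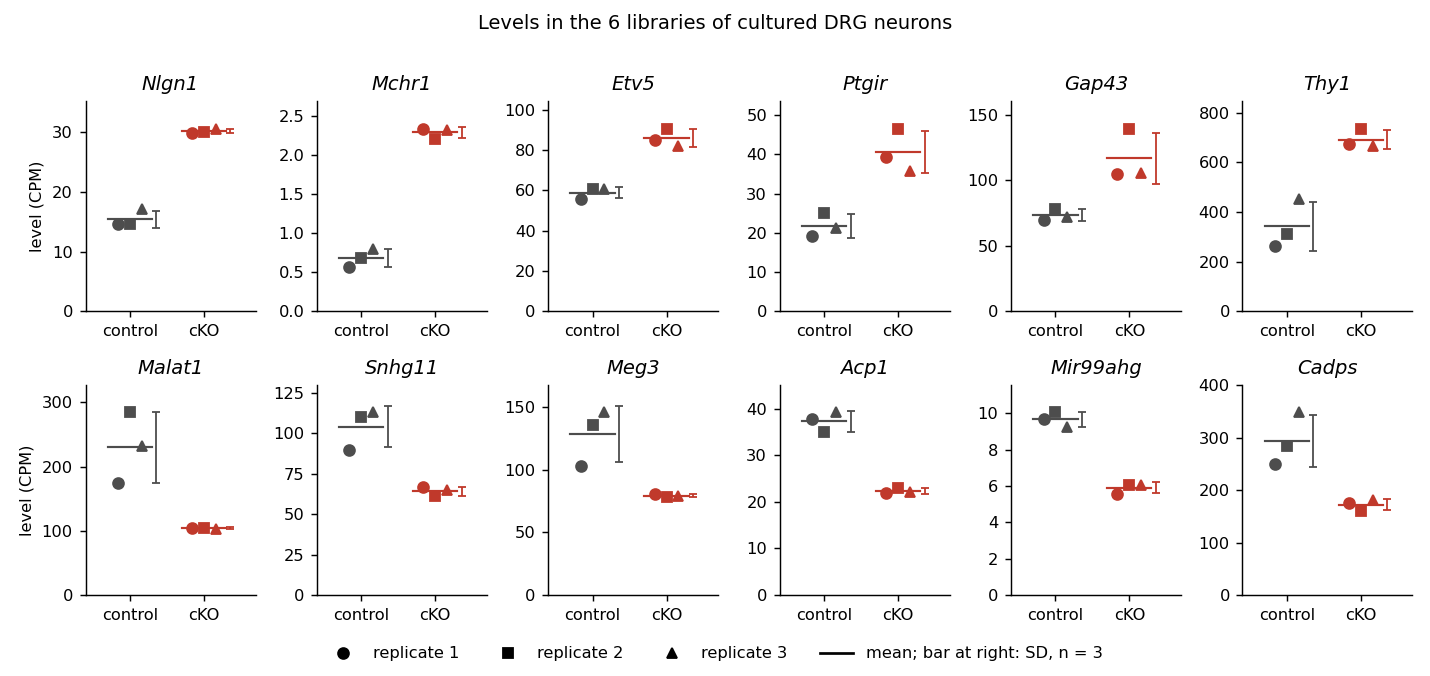
Levels in CPM (vertical axes, a scale of its own for each gene) of 12 genes in the 6 neuron libraries, control and cKO; points are libraries, the line is the group mean and the bar its SD (n = 3). For *Nlgn1* the controls lie between 14.5 and 17.1 CPM and the cKO libraries between 29.9 and 30.5 CPM, and for *Malat1* the cKO libraries lie within 103 to 105 CPM below scattered controls of 174 to 285 CPM.

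The lower gene with the smallest p was the protein-coding *Acp1*. Genes with clone, gene-model or Rik names and genes named for sex were left out of the ranking. *Xist* was among them (lower, edgeR unadjusted p 1.98e-05, and adjusted p 0.0221 without control replicate 1). Among the 12 lower genes left with the smallest p-values, *Malat1*, *Snhg11*, *Meg3*, *Mir17hg*, *Mir99ahg*, *Lncppara* and *Firre* are known or annotated as noncoding. The gene annotation used lists *Snhg11* as protein coding, however. *Malat1* (ENSMUSG00000092341.3, chr19:5795690-5802672, minus strand), an abundant RNA of nuclear speckles, had 174, 285 and 232 CPM in control and 105, 105 and 103 CPM in cKO. The cKO libraries were nearly equal and lay below every control, among which the spread was wide (log2 fold change -1.15, SE 0.156, adjusted p 0.121). *Snhg11* (chr2:158375638-158386145, plus strand), a small nucleolar RNA host gene, had 89.5, 109.9 and 113 CPM in control and 66.8, 60.98 and 64.8 CPM in cKO (-0.70, SE 0.0952, adjusted p 0.121). *Meg3* (chr12:109541001-109571726, plus strand), an imprinted RNA, had 103, 136 and 146 CPM in control and 80.3, 78.3 and 79.03 CPM in cKO (-0.70, SE 0.119, adjusted p 0.261). Again the cKO libraries lay close together and control replicate 1 was the nearest to them.

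Over a list of 12 nuclear long noncoding RNAs, 0 were higher and 6 lower at an unadjusted p under 0.05 (against 3.85% of all genes), and the same 6 had groups without overlap (against 7.69%). The median log2 fold change was -0.247, beside -0.0034 over all genes tested. Besides *Malat1*, *Snhg11* and *Meg3* these were *Miat* (27.2, 53.8 and 45.95 CPM in control, 22.5, 23.3 and 22.8 CPM in cKO), *Neat1* (44.6, 48.8 and 46.5 and 35.3, 40.7 and 32.5 CPM) and *Gas5* (109, 89.03 and 99.9 and 80.6, 83.1 and 85.7 CPM). *Neat1* is the scaffold of nuclear paraspeckles and *Gas5* another small nucleolar RNA host gene. A gene that overlaps *Miat* was counted at 52.1% of its level. *Rian* (0.04) and *Pvt1* (0.16), imprinted and *Myc*-neighbouring RNAs of the list, had overlapping groups. Without control replicate 1, the list held 7 lower genes at a median of -0.341, and *Malat1* (adjusted p 0.0111), *Meg3* (0.0111), *Snhg11* (0.0135) and *Miat* (0.0135) passed the threshold. Over all 3860 long noncoding RNAs tested, 122 were higher and 151 lower at that p, close to the share among all genes, with a median of -0.00638.

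The other lower genes with small p-values were *Acp1* (a small tyrosine phosphatase, log2 fold change -0.74, SE 0.0731, adjusted p 0.078), *Cd300lg* (an endothelial receptor, -1.03), *Spaca6* (-0.88), *Tmem18* (-0.49) and *Cadps*. Without control replicate 1, *Acp1* (adjusted p 0.0402) and *Spaca6* (0.0339) passed the threshold of the edgeR test. *Acp1* had 37.7, 34.9 and 39.2 CPM in control and 21.9, 23.1 and 22.04 CPM in cKO. The neighbouring gene *Alkal2* overlaps it at 34.3% of its level, and *Alkal2* itself lay on the other side, higher in every cKO library (0.65). *Mir17hg*, the host transcript of the miR-17-92 cluster, had 4.94, 4.11 and 3.72 CPM in control and 1.53, 1.86 and 1.93 CPM in cKO (-1.25).

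Of 19 listed genes of the AhR pathway, 18 were tested: 1 was higher and 1 lower at an unadjusted p under 0.05 (against 4.15% and 3.85% of all genes), and 1 lay apart in each direction (against 7.54% and 7.69%). These counts are near the shares among all genes, with a median log2 fold change of -0.119. The lower one was *Cyp1a1*, the classical AhR target, at 388, 394 and 322 CPM in control and 258, 334 and 289 CPM in cKO. cKO replicate 2 exceeded control replicate 3, so the groups overlapped (log2 fold change -0.33, SE 0.117, unadjusted p 0.0231, adjusted p 0.579). *Cyp1b1*, another cytochrome P450 induced by AhR, leaned the other way, with 41.2, 46.7 and 32.2 CPM in control and 47.2, 57.3 and 42.3 CPM in cKO (0.29, adjusted p 0.644). *Tiparp*, an ADP-ribosyltransferase that restrains AhR, had 128, 116 and 121 CPM in control and 111, 108 and 114 CPM in cKO (-0.13, adjusted p 0.635). Its groups were separate by a small margin. The repressor *Ahrr* (-0.22) and the partner *Arnt* (-0.14) overlapped between genotypes. The higher one of the list was the cytokine gene *Il6* (55.9, 52.5 and 36.6 CPM in control, 61.5, 80.9 and 64.8 CPM in cKO, 0.52, adjusted p 0.547). Leaving out control replicate 1, the list held 1 higher and 0 lower genes at a median of -0.00235, and without control replicate 3 it held 1 and 3. It held 1 and 0 without cKO replicate 1 or 3, 0 and 2 without cKO replicate 2 and 2 and 1 without control replicate 2.

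The core of the AhR response element, GCGTG on either strand, was searched in the 250 bases upstream of the RefSeq start sites (GRCm38.p6), where 12 of the 18 genes had an entry. It was present in 6 of them (*Arnt*, *Ahrr*, *Ptges3*, *Cyp1a1*, *Cyp1b1* and *Tiparp*) and in 30.9% of all 27025 genes with an entry. The longer form TNGCGTG, which contains the core, was present only in *Ahrr* among the 12 and in 4.76% of all. The stretches around 1 core in each of the 4 best known targets are printed with the core in capitals (CACGC is GCGTG read on the other strand). They lie at chr9:57697537-57697585 (plus strand) for *Cyp1a1*, chr17:79715111-79715159 (minus) for *Cyp1b1*, chr3:65528255-65528303 (plus) for *Tiparp* and chr13:74292412-74292460 (minus) for *Ahrr*. *Ahrr* holds 3 cores in its 250 bases, the others 1 each.
Cyp1a1: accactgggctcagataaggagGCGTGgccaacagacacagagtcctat
Cyp1b1: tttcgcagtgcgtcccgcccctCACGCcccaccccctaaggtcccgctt
Tiparp: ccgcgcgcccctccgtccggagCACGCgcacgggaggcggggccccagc
Ahrr: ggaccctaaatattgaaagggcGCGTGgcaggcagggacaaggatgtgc
Of the 25 genes comprising *Ahr*, *Thy1*, *Cadps* and those with the smallest p-values, 20 had an entry and 4 held the core (*Fam210b*, *Mir17hg*, *Snhg11* and *Mir99ahg*). A match describes the letters and is no evidence of binding.

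Of 20 clock genes tested, whose factors are relatives of AhR, 0 were higher and 4 lower (against 3.85% of all genes) at an unadjusted p under 0.05, 16 had a negative log2 fold change (as had 11833 of all 23295 genes), and the median was -0.0975. Leaving out cKO replicate 1 reduced the lower genes to 1, and leaving out any other library gave 3 or 4. *Per2*, a repressor of the clock, had 20.5, 22.01 and 19.1 CPM in control and 17.9, 15.1 and 16.4 CPM in cKO, with every cKO library below every control (-0.32, SE 0.0958, adjusted p 0.538). *Nr1d2*, which encodes the nuclear receptor REV-ERB-beta, had 81.6, 72.9 and 74.3 CPM in control and 63.3, 70.1 and 68.8 CPM in cKO (-0.18). *Per3* (-0.50) and *Ciart* (-0.34) were the other lower genes, but genes that overlap them were counted at 6290% and 189% of their levels, so these values cannot be assigned to them. *Arntl*, which encodes BMAL1, had 16.6, 16.2 and 14.5 CPM in control and 14.7, 16.8 and 15.2 CPM in cKO, with overlapping groups (-0.02). The E-box CACGTG, the element of BMAL1 and CLOCK, was found in the same upstream windows of 5 of the 17 clock genes with an entry (*Per1*, *Cry1*, *Tef*, *Bhlhe41* and *Ciart*) and of 6.86% of all genes.

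**Figure D2:**
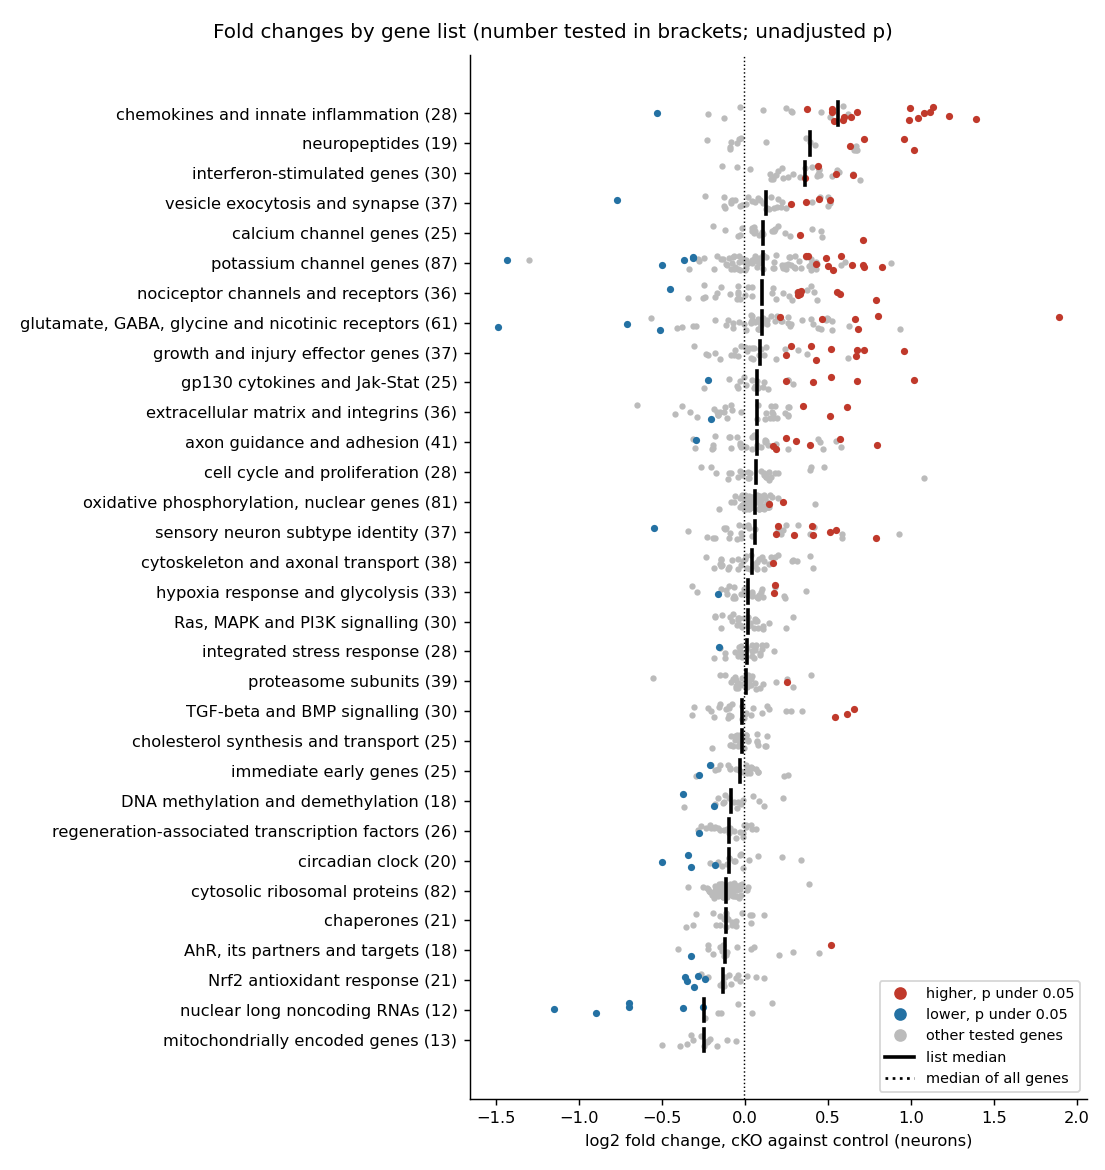
Log2 fold change of cKO against control (horizontal axis) of every tested member of each gene list in the neuron libraries; points are genes, coloured where the unadjusted p is under 0.05, and the bar is the list's median. Chemokine and innate inflammation genes have a median of 0.563, neuropeptides of 0.392 and interferon-stimulated genes of 0.362, while nuclear long noncoding RNAs have -0.247 and clock genes -0.0975.

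Of 37 effector genes of neuronal growth and injury, 9 were higher (against 4.15% of all genes) and 0 lower at an unadjusted p under 0.05, with a median log2 fold change of 0.0931. These were *Gap43* and secreted factors for the most part. *Lif*, a cytokine of the interleukin-6 family, had 219, 226 and 153 CPM in control and 329, 352 and 274 CPM in cKO (0.68, SE 0.157, adjusted p 0.411). *Csf1*, the factor through which injured neurons stimulate microglia and macrophages, had 381, 390.0 and 289.7 CPM in control and 439.5, 518 and 438 CPM in cKO (0.40). Both were higher in every cKO library, with control replicate 3 the lowest. The others were *Gal*, *Il6*, *Sdc1*, *Adcyap1*, *Lmo7* and *Socs3*, with log2 fold changes from 0.25 to 0.96. Without cKO replicate 2 the count was 4 (of 38 tested) in place of 9, at a median of 0.0895.

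Of 26 transcription factors of the regeneration programme, 0 were higher and 1 lower at that p, near the 3.85% of all genes, and the median was -0.0964. *Atf3*, which marks injured neurons, was abundant, at 815, 746 and 863 CPM in control and 783, 774 and 819 CPM in cKO (-0.03, SE 0.0797). *Jun* (0.04), *Sox11* (-0.11) and *Stat3* (-0.0033) also had overlapping groups. The lower one was *Fosl1* (-0.28), whose position is shared with a gene counted at 92.8% of its level. Without control replicate 3 the list held 6 lower genes, without control replicate 2 it held 3, without cKO replicate 1 it held 2 and without cKO replicate 2 or 3 it held 0. Leaving out control replicate 1 gave 2 higher and 1 lower. The injury effector *Sprr1a* ran from 37.6 to 66.5 CPM in control and from 34.7 to 56.4 CPM in cKO, a range too wide to separate the groups.

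The neuropeptide genes with small p-values were all higher in cKO. Of 19 tested, 4 were higher (against 4.15% of all genes) and 0 lower at an unadjusted p under 0.05, with a median log2 fold change of 0.392. *Gal*, the gene of galanin, a peptide that neurons make after axon injury, had 20.4, 27.6 and 22.2 CPM in control and 36.7, 48.7 and 30.6 CPM in cKO (0.72, SE 0.178, adjusted p 0.457). *Cartpt* (CART peptide) had 17.2, 16.2 and 11.98 CPM in control and 22.01, 28.4 and 19.4 CPM in cKO (0.63), and *Penk* (proenkephalin) 22.3, 27.1 and 7.34 CPM and 39.2, 46.1 and 29.6 CPM (1.02). *Adcyap1*, the gene of PACAP, was the most abundant of these, at 93.5, 123 and 209 CPM in control and 190.2, 364 and 273 CPM in cKO (0.96). Its control replicate 3 exceeded cKO replicate 1, whereas the other 3 genes were separate. In all 4 genes cKO replicate 2 was the highest library, and without it 2 genes were higher and 1 lower, at a median of 0.214. The list held 6 higher genes without control replicate 3 (median 0.306) or without cKO replicate 3 (0.446), and the median was 0.231 without control replicate 2 and 0.596 without cKO replicate 1. The peptides of nociceptors that signal pain, *Calca* (584, 419.8 and 437 CPM in control, 502, 472 and 444 CPM in cKO, -0.02) and *Tac1* (-0.09), overlapped between the genotypes.

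Genes of vesicle release gave 4 higher and 1 lower (*Cadps*) of 37 tested (against 4.15% and 3.85% of all genes), with a median of 0.126. The granule proteins *Scg2* (176, 201 and 203 CPM in control, 245, 324 and 259 CPM in cKO, 0.51) and *Chga* (0.28) and the release regulators *Cplx2* (121, 142 and 147 and 206, 187 and 166 CPM, 0.44) and *Doc2b* (0.37) were the higher ones. *Snap25*, *Syt1* and *Unc13a*, core parts of the fusion machinery, had log2 fold changes of 0.22, -0.03 and 0.15 with overlapping groups.

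Among channels and receptors of nociceptors, 7 of 36 were higher at an unadjusted p under 0.05 (against 4.15% of all genes; median 0.104). *Cacna1h*, the T-type calcium channel, had 46.3, 53.6 and 53.6 CPM in control and 68.4, 62.3 and 62.9 CPM in cKO (0.33, SE 0.0791, adjusted p 0.411). *Trpm8*, the cold receptor channel, had 1.34, 3.26 and 2.34 CPM in control and 4.27, 4.02 and 4.18 CPM in cKO (0.79, adjusted p 0.556). Both were separate, *Trpm8* with widely spread controls. *Htr3a*, *Bdkrb2*, *Asic1*, *Oprm1* and *Asic3* were the other higher genes (0.55, 0.32, 0.34, 0.32 and 0.57). A gene overlapping *Htr3a* was counted at 74.8% of its level. The sodium channels *Scn9a* (-0.05) and *Scn10a* (-0.04) and the capsaicin receptor *Trpv1* (0.31) overlapped.

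The shares of all genes that were higher and lower, 4.15% and 3.85%, are the background for the next counts. Of 87 potassium channel genes, 11 were higher and 5 lower (median 0.107), among them *Kcnk4*, the mechanosensitive channel TRAAK (4.49, 4.73 and 5.43 CPM in control, 8.12, 7.78 and 7.09 CPM in cKO, 0.64, with an overlapping gene at 27.5% of its counts). Of 61 genes of glutamate, GABA, glycine and nicotinic receptors, 6 were higher and 3 lower (median 0.101). The nicotinic subunit *Chrna3* had 5.18, 6.903 and 5.07 CPM in control and 11.6, 11.3 and 7.32 CPM in cKO (0.80), and the kainate receptor *Grik1* 227, 198 and 176 and 180.4, 101 and 139 CPM (-0.51). The groups of *Chrna3* were separate and those of *Grik1* overlapped, since cKO replicate 1 exceeded control replicate 3. Of 37 genes of sensory neuron subtypes, 8 were higher and 1 lower (median 0.0594), including the neurotrophin receptor *Ntrk2* (122, 140.2 and 141 CPM in control, 145, 162 and 152 CPM in cKO, 0.19). These counts moved with single libraries. Without control replicate 3 more genes were higher at that p: 16 of vesicle release, 15 of nociceptor channels, 16 of subtype identity, 29 of potassium channels and 19 of the receptors. Leaving out cKO replicate 1 went the other way, with 3 higher and 2 lower genes of vesicle release, 5 and 6 of nociceptor channels, 6 and 3 of subtype identity and 8 and 7 of potassium channels. The other fits without 1 library gave 3 to 5 higher genes of vesicle release, 5 to 8 of nociceptor channels, 3 to 5 of subtype identity, 7 to 8 of potassium channels and 5 to 6 of the receptors. Without control replicate 1, 3 genes of vesicle release were lower.

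**Figure D3:**
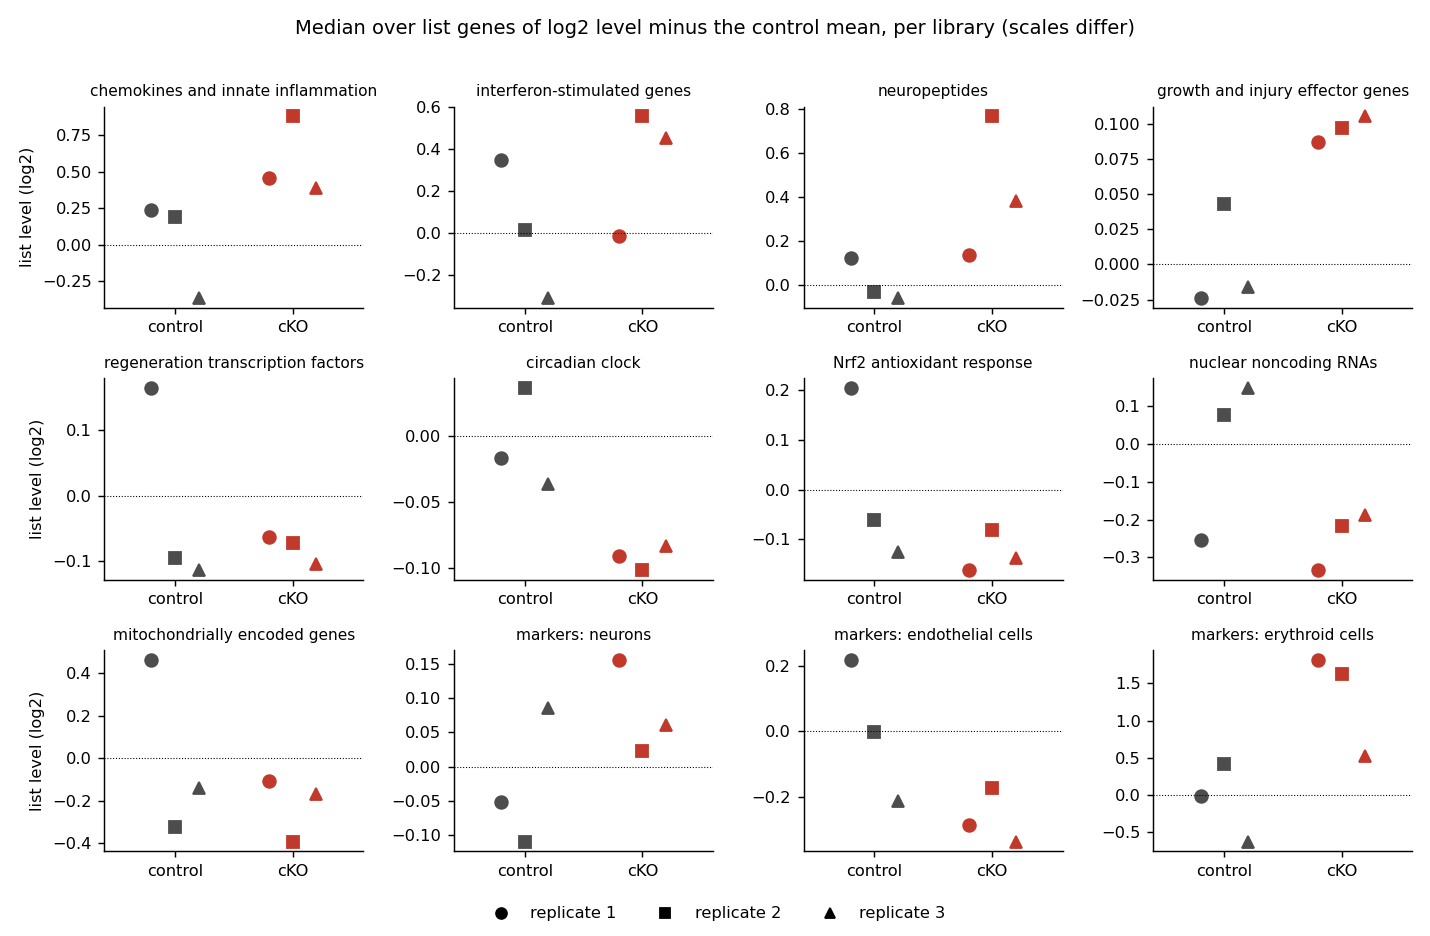
Median over each list's genes of the log2 level minus the control mean (vertical axis), for 12 lists in each of the 6 neuron libraries. Innate inflammation genes lie at 0.237, 0.188 and -0.368 in control replicates 1, 2 and 3 and at 0.46, 0.884 and 0.385 in the cKO replicates, the highest in cKO replicate 2.

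Genes of chemokines and innate inflammation were often higher in cKO. Of 28 tested, 16 (against 4.15% of all genes) were higher and 1 lower at an unadjusted p under 0.05. All cKO libraries lay above all controls for 11 (against 7.54% of all genes), and the median log2 fold change was 0.563. *Il1b*, the gene of interleukin-1-beta, had 8.095, 12.2 and 7.495 CPM in control and 17.02, 25.7 and 15.1 CPM in cKO (1.04, SE 0.243, adjusted p 0.411). *Ptgs2*, the inducible cyclooxygenase, had 142, 120.4 and 68.7 CPM in control and 179.9, 188 and 159 CPM in cKO (0.67, SE 0.227, adjusted p 0.557). Every cKO library exceeded every control for both genes.

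The chemokine *Ccl2* had 71.3, 73.2 and 56.4 CPM in control and 91.4, 124 and 87.4 CPM in cKO (0.59, adjusted p 0.468), with an overlapping gene counted at 100% of its level. *Ccl7* had 20.2, 18.2 and 13.6 CPM in control and 24.04, 30.9 and 23.2 CPM in cKO (0.59), and *Cxcl2* 117, 94.6 and 67.3 and 125, 153 and 124 CPM (0.53). These chemokines attract monocytes (*Ccl2*, *Ccl7*) and neutrophils (*Cxcl2*). The other higher genes were *Il1a*, *Ccr1*, *Tnf*, *Ccl3*, *Ccl8*, *Cxcl5*, *C3*, *Lcn2*, *Nlrp3*, *Tlr2* and *Nfkbia*, with log2 fold changes from 0.37 to 1.39. A gene overlapping *Il1a* was counted at 99.5% of its level. The lower one was *Cxcr4*, the receptor of CXCL12, with 282, 219 and 182 CPM in control and 151, 148 and 173 CPM in cKO (-0.53, adjusted p 0.517).

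All 16 higher genes had their highest level in cKO replicate 2, and all but *Ccl8* had their lowest in control replicate 3. Without cKO replicate 2, 5 of the 28 were higher (median 0.364), and without control replicate 3, 9 (median 0.361). The count was 14 (median 0.626) without control replicate 1, and 13 to 16 in the remaining fits without 1 library. Markers of blood and immune cells were examined beside these genes. The summed markers of lymphocytes and neutrophils were 13.6, 57 and 10.6 CPM in control replicates 1, 2 and 3 and 44.5, 111 and 34.9 CPM in the cKO replicates, highest in cKO replicate 2. Summed macrophage markers were 182, 186 and 179 CPM in control and 185, 204 and 182 CPM in cKO, and 3 of the 11 markers (*C1qa*, *C1qc* and *Tyrobp*) had an unadjusted p under 0.05 and were higher; this number was 1 without control replicate 1 or cKO replicate 1, 0 without control replicate 3, 5 without control replicate 2 and 4 without cKO replicate 3. Most of that sum came from *Cx3cr1* (means of 138 and 136 CPM). Erythroid markers summed to 8.58, 10.97 and 5.14 CPM in control and 25.3, 22.8 and 11.4 CPM in cKO, highest in cKO replicate 1. At an unadjusted p under 0.05, 4 of 5 were higher (against 4.15% of all genes). The number was 2 when control replicate 3, cKO replicate 1 or cKO replicate 2 was left out. Of these sums, the first and the macrophage sum thus peaked in the same library as the innate genes, the macrophage sum by a small margin, and the erythroid sum did not. No marker of these 3 cell types was at 0 in all 6 libraries. Their part in the result was not tested.

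**Figure D4:**
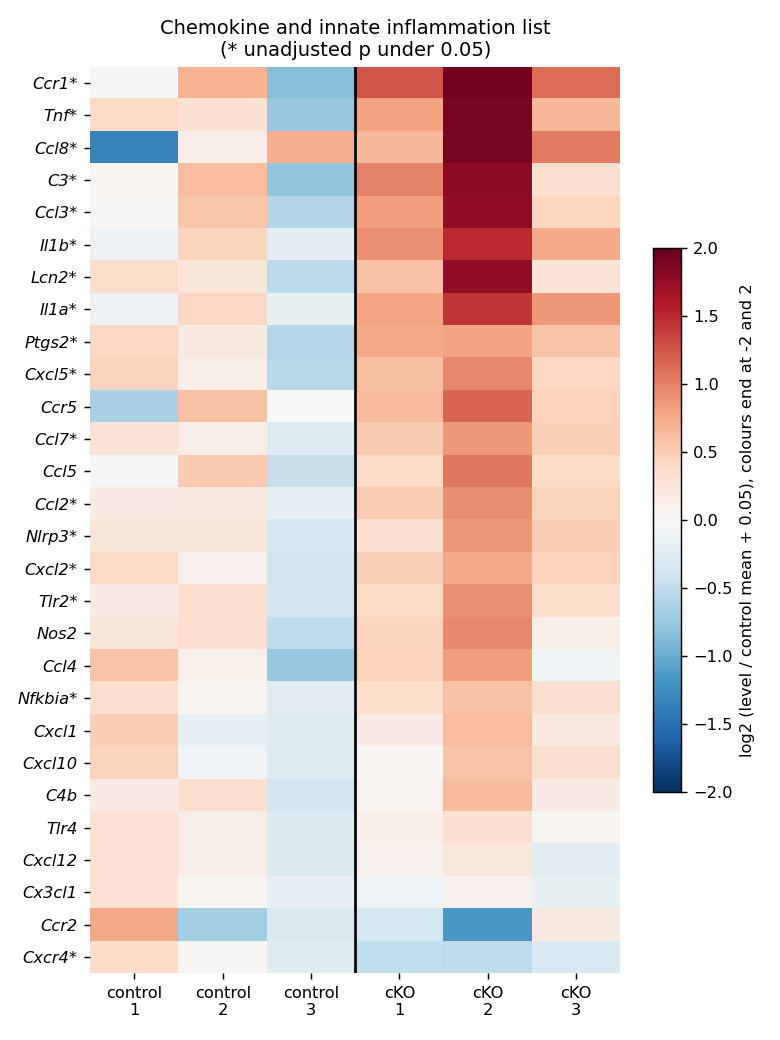
Heat map of the 28 tested genes of chemokines and innate inflammation (rows) in the 6 neuron libraries (columns); colour gives log2 of the level over the control mean with 0.05 added, and an asterisk marks an unadjusted p under 0.05. The column of cKO replicate 2 holds the highest level of all 16 higher genes.

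NF-kappaB drives many genes of this list, and a form of its element (GGGAA, any base, T, any base, CC, on either strand) was searched in the 250 bases upstream of their RefSeq start sites. It was present in 5 of the 19 genes with an entry (*Cxcl1*, *Cxcl2*, *Cxcl10*, *Nfkbia* and *Tlr2*) and in 1.2% of all genes with an entry. The stretches of the 3 that were higher at an unadjusted p under 0.05 are printed with the matching letters in capitals. They lie at chr5:90903780-90903833 (plus strand) for *Cxcl2*, chr12:55492828-55492881 (minus) for *Nfkbia* and chr3:83841749-83841802 (minus) for *Tlr2*, in GRCm38.p6. In *Cxcl2* the capitals cover 2 overlapping matches.
Cxcl2: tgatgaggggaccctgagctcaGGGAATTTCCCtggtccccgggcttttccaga
Nfkbia: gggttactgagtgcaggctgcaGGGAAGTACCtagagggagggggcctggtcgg
Tlr2: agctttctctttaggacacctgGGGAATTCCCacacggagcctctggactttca
*Tlr2* had 9.55, 10.8 and 6.51 CPM in control and 11.2, 16.4 and 11.01 CPM in cKO (0.52), and *Nfkbia*, which encodes the inhibitor of NF-kappaB, 296, 243 and 202 and 303, 358 and 297 CPM (0.37). *Il1b* had 0 matches in its window, and *Ccl2* and *Ccl7* were not searched.

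Interferon-stimulated genes leaned the same way but with wide spread. Of 30 tested, 28 had a positive log2 fold change and the median was 0.362, yet 4 were higher (against 4.15% of all genes) and 0 lower at an unadjusted p under 0.05. *Irf1*, an interferon-induced transcription factor, had 80.8, 82.9 and 65.8 CPM in control and 88.5, 111 and 95.1 CPM in cKO (0.36, SE 0.114). *Ifit1*, an antiviral protein that binds RNA, had 143, 114 and 87.8 CPM in control and 117, 197 and 226 CPM in cKO (0.65). The groups of *Irf1* were separate and those of *Ifit1* overlapped, since control replicate 1 exceeded cKO replicate 1. The count depended on single libraries. It was 20 without cKO replicate 1 (median 0.522) and 16 without control replicate 1 (0.525). It was 0 without cKO replicate 2 (0.234) and 1 without control replicate 2 (0.374), control replicate 3 (0.196) or cKO replicate 3 (0.282). The median level of the list in cKO replicate 1 was -0.0167 against the control mean, below control replicate 1 at 0.345.

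The antioxidant genes under the factor Nrf2 gave 0 higher and 5 lower (against 3.85% of all genes) of 21 at an unadjusted p under 0.05, with a median of -0.13 and a negative log2 fold change in 18. *Gclc*, the catalytic subunit for glutathione synthesis, had 148, 130.1 and 132 CPM in control and 115, 115 and 117 CPM in cKO (-0.24, SE 0.07003, adjusted p 0.536). *Hmox1*, heme oxygenase-1, was among the most abundant, at 2003, 1307 and 1398 CPM in control and 1183, 1237 and 1250.0 CPM in cKO (-0.36). All cKO libraries lay below all controls in both, and control replicate 1 was the highest. *Gsta4* (-0.35), *Gstp1* (-0.28) and *Gclm* (-0.31) were the other lower genes; a gene overlapping *Gclm* was counted at 112% of its level. The count was 1 without cKO replicate 1 (median -0.101), 2 without cKO replicate 3 (-0.14) and 3 without control replicate 1 (-0.0413), and 4 to 6 without any other library. A form of the antioxidant response element, TGACNNNGC, was present upstream of 6 of the 17 genes with an entry and of 11.5% of all.

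Of 82 ribosomal protein genes 79 had a negative log2 fold change (median -0.112), and all 13 mitochondrially encoded genes did (median -0.249), with 0 at an unadjusted p under 0.05 in either list. The medians were 0.0269 and 0.0627 without control replicate 1, and 2 ribosomal and 5 mitochondrial genes were lower without control replicate 2. Nuclear genes of oxidative phosphorylation had a median of 0.0623, with 70 of 81 positive and 2 higher at that p, or 15 without control replicate 3 and 0 without cKO replicate 1 or 2. Their median was 0.00339 without control replicate 2. The lists that follow had counts to be read against 4.15% higher and 3.85% lower over all genes, as do the 2 of 81 above. The hypoxia and glycolysis list gave 2 higher and 1 lower of 33 (median 0.0183; 0 and 0 when any cKO library was left out), the integrated stress response 0 higher and 1 lower of 28 (median 0.012) and cholesterol genes 0 and 0 of 25 (median -0.0201). DNA methylation genes gave 0 higher and 2 lower of 18, *Tet2* (15.2, 20.3 and 18.2 CPM in control, 14.03, 14.4 and 13.2 CPM in cKO, -0.37) and *Tet3* (-0.19), both of which encode enzymes that oxidise methylated cytosine.

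Of 8 endothelial markers 5 were lower at an unadjusted p under 0.05 (against 3.85% of all genes), *Tek* and *Egfl7* among them with overlapping groups; all 8 had negative log2 fold changes and the median was -0.297. *Emcn* had 296, 254 and 222 CPM in control and 198, 212 and 202 CPM in cKO (-0.33, SE 0.104, adjusted p 0.547), and *Pecam1* 418, 327 and 286 and 267, 283 and 257 CPM (-0.35). Of 7 markers of pericytes and smooth muscle 2 were lower, *Abcc9* (18.2, 15.3 and 15.9 CPM in control, 11.2, 11.4 and 9.34 CPM in cKO, -0.62) and *Kcnj8* (-0.50), both parts of the potassium channel of pericytes. The endothelial count was 1 without cKO replicate 3 (median -0.254), 2 without cKO replicate 1 (-0.289), 3 without control replicate 1 (-0.194) or control replicate 2 (-0.296), and 7 without control replicate 3 (-0.397). Control replicate 1 was the highest library for the 4 genes named, and the pericyte count was 2 or 3 in every fit without 1 library. Of 10 satellite glia markers 0 were higher and 1 lower, *Ednrb* (-0.38), with a median of -0.0606 that was 0.0444 without control replicate 1, where 1 was higher and 1 lower. The number lower was 0 without cKO replicate 1 and 2 without cKO replicate 2 (median -0.177) or control replicate 3 (-0.171). Of 10 Schwann cell markers 0 were higher and 2 lower, *Mbp* (-0.37) and *Cldn19* (-0.56), with a median of -0.129, and 1 to 3 were lower in the fits without 1 library. Of the 15 neuron markers 1 was higher, *Isl1* (0.20), and 0 lower, with a median of 0.0196, and 5 were higher without control replicate 3. Without control replicate 2, 0 were higher and 1 lower, without cKO replicate 1 or 3, 0 and 0, and without cKO replicate 2 the median was 0.102.

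The neurons were compared with naive ganglia, where cKO and control ganglia were sequenced without culture or surgery (3 mice each). The series' text describes the controls of that experiment as Ahr f/f or f/+, so the control genotype may not be the same in both settings. The question was whether the genotype difference itself changed, and the difference of the 2 effects was tested in a fit of the 12 libraries. The 2 sets were deposited in separate tables, so culture, sequencing set and control genotype cannot be told apart. At an adjusted p of 0.05, 1 of 22185 genes (0.00451%) was called by the edgeR test, *Mchr1*, and 1673 (7.54%) had an unadjusted p under 0.05. *Mchr1* was higher in every cKO neuron library and lower in every naive cKO library, where it had 4.40, 4.65 and 5.37 CPM in control and 3.48, 3.25 and 4.08 CPM in cKO (log2 fold change -0.42, SE 0.246, unadjusted p 0.117). The effects differed by 2.13 (log2, SE 0.215, adjusted p 0.00998). This call was lost without control replicate 2 (adjusted p 0.0814), cKO replicate 1 (0.0574) or cKO replicate 3 (0.0583), although the value stayed between 2.05 and 2.25 over the 6 fits that each left out a neuron library. It was also lost when the replicate number was added to the fit as a block, where 0 genes were called.

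*Thy1* had a log2 fold change of 1.01 (SE 0.182) in neurons and 0.86 (SE 0.0756, adjusted p 0.00191) in naive ganglia, and the difference of 0.15 (SE 0.223) had an unadjusted p of 0.507 and ranged from -0.01544 to 0.411 when single neuron libraries were left out, the highest without control replicate 3. *Cadps* had -0.77 (SE 0.121) in neurons and -0.81 (SE 0.0852, adjusted p 0.00739) in naive ganglia, with a difference of 0.04 (SE 0.167, unadjusted p 0.821) that ranged from -0.07433 without control replicate 1 to 0.1806 without control replicate 3. Both passed the edgeR threshold in naive ganglia, where 2 of 21261 genes did. *Nlgn1* (-0.23 in naive ganglia, difference 1.202, unadjusted p 0.000178) and *Malat1* (0.05, difference -1.199, unadjusted p 0.000521) had overlapping groups in naive ganglia, and neither difference of effects passed the threshold (adjusted p 0.625 each).

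Of the 12 higher genes with the smallest p-values in neurons, 8 had the same sign in naive ganglia and 11 had an unadjusted p under 0.05 for the difference of effects. Since these genes were chosen on the neuron libraries that also enter the difference, its p-values for them are a description. Of the 12 lower ones, 11 were tested in naive ganglia, 5 had the same sign there and 7 had such a p. Over the 20161 genes tested in both, 47.8% had the same sign. Of the innate inflammation genes, *Ccl2* had a log2 fold change of -0.56 in naive ganglia (difference 1.16, unadjusted p 0.00567), *Ptgs2* of -0.80 (difference 1.48, unadjusted p 0.05199) and *Il1b* of -0.18 (difference 1.23, unadjusted p 0.118), and none of these 3 differences passed the adjusted threshold.

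**Figure D5:**
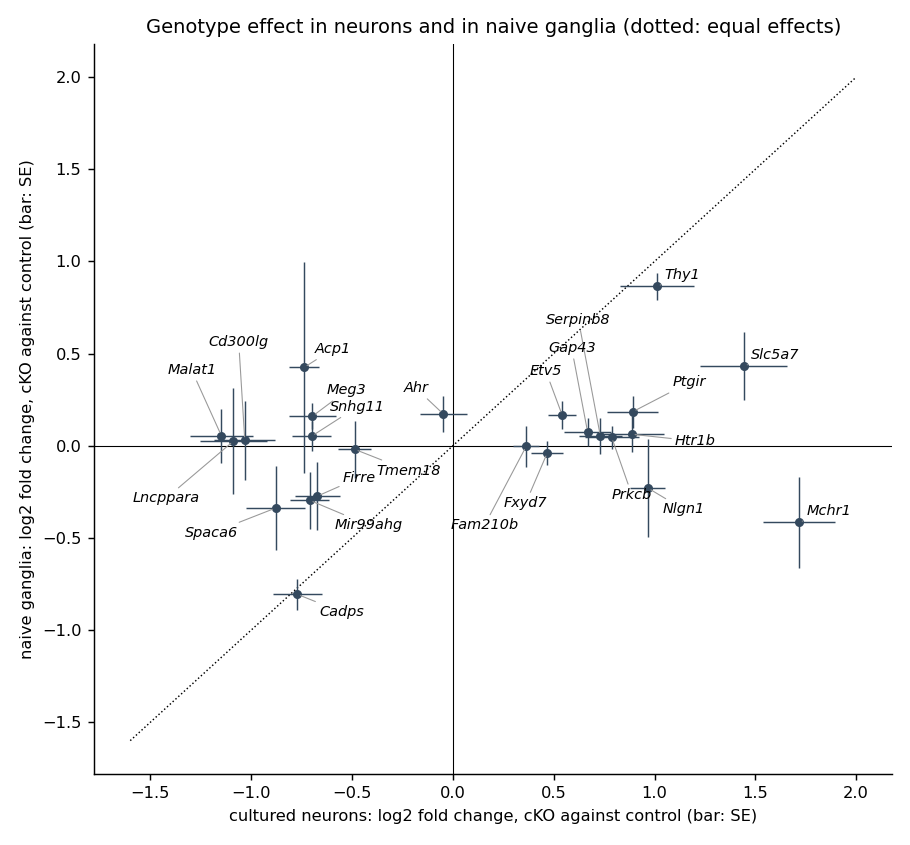
Log2 fold change of cKO against control in cultured neurons (horizontal axis) and in naive ganglia (vertical axis) for *Ahr*, *Thy1*, *Cadps* and the genes with the smallest p-values in neurons; bars are standard errors. *Thy1* (1.01 and 0.86) and *Cadps* (-0.77 and -0.81) have the same sign in both, while *Mchr1* (1.72 and -0.42) lies on opposite sides of 0.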

How the data were processed

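RNA was extracted with a QIAGEN RNeasy Plus Mini kit and sequenced as TruSeq Stranded mRNA libraries, per the protocols in the labels. Trim Galore, HISAT2, featureCounts and the build mm10 are named in the submitters' processing notes; versions and the strand setting are not given in the sources used here, so overlapping genes cannot be told apart. The authors deposited raw counts and FPKM per gene. The length implied by both equals the whole gene span for 99.247% of the genes compared (tolerance 0.1%), so introns were counted.

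Counts of the 6 neuron libraries were tested with edgeR 4.0.16 (R 4.3.3; TMM scaling, filterByExpr with minimum counts of 10 and 15 in total, quasi-likelihood test, Benjamini-Hochberg adjustment over 23295 genes), with the genotype as the only term. CPM values use TMM-scaled library sizes. The difference from naive ganglia was the interaction term in a fit of 12 libraries. Alternatives were DESeq2 1.42.0, limma 3.58.1 on log2(FPKM + 0.1), voom with sample quality weights, other filters and scaling, a replicate block and leaving out each library. The code was tested on simulated data.

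The genes named were drawn from *Ahr*, *Thy1* and *Cadps* and their neighbours and from rankings in each direction. The rankings took the 12 genes with the smallest p and the 8 with the largest fold change (unadjusted p under 0.05, mean of at least 1 CPM, no overlap of groups). Genes with clone, gene-model or Rik names and genes named for sex were left out of them. Of the lists reported, members with an unadjusted p under 0.05 and up to 4 best known ones were also drawn on. *Alkal2*, *Cx3cr1*, *Lyz2* and *Xist* were named after their values were seen. Members and lists were chosen with earlier results of these data known. Start-site sequences came from RefSeq (GRCm38.p6). A few list members are not reported here.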

Additional observations from a re-analysis of the deposited data

Results flagged for a closer look

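*Mchr1*, the receptor of melanin-concentrating hormone, was singled out because its genotype effect differed between cultured neurons and naive ganglia by the edgeR interaction test. The difference was 2.13 on the log2 scale (adjusted p 0.00998), from 1.72 in neurons and -0.42 in naive ganglia. As given above, the call was lost without some single libraries and with the replicate block.

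For *Mchr1* and a further 4 of the 225 named genes measured in both settings, every cKO library lay on one side of every control in neurons and on the opposite side in naive ganglia. This was 2.22% of the named genes, partly chosen for separate groups in neurons, beside 213 of 20161 genes (1.06%) over the whole table. The neuron log2 fold changes were 1.72 for *Mchr1*, -0.70 for *Meg3*, 0.59 for *Ccl7*, -0.88 for *Slc44a5* and -0.16 for *Zscan26*. *Meg3* had 36.6, 36.0 and 34.8 CPM in naive control and 40.3, 37.6 and 42.0 CPM in naive cKO, and *Ccl7* had 2.92, 1.63 and 1.74 CPM and 0.836, 1.28 and 0.807 CPM. The difference of effects had an unadjusted p of 0.000136 for *Meg3*, 0.000592 for *Ccl7*, 0.00812 for *Slc44a5* and 0.0179 for *Zscan26*. None of these 4 passed the adjusted threshold (adjusted p 0.625 to 0.631).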

How the results depend on the processing

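The count of genes called in neurons was 0 with RLE scaling, with a minimum of 10 counts in every library and without overlapping genes. It was 165 with DESeq2, 27 without a filter on low counts, 9 at an adjusted p of 0.1, 6 when all 14 libraries of the table were fitted, 29 with voom quality weights and 1 with limma on FPKM, and 0 to 15 when single libraries were left out. All 165 genes of DESeq2 had an unadjusted edgeR p under 0.05, and DESeq2 gave no adjusted p for 4066 genes. The difference from naive ganglia called 24 genes with DESeq2 and 0 to 5 when single libraries were left out. The cause was not tested. Control replicate 1, with 25299938 counts, limits the depth.

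Replicate numbers are shared between the groups, but the labels do not say that they pair mice. The deviations of same-numbered libraries correlated at 0.0642, 0.12 and 0.221, and each cKO library correlated best with its own number in 3 of 3, a hint from the data only. With the replicate block 5 genes were called in neurons (*Lyz2*, *C3*, *Hbb-bs*, *Il1b* and *Nlgn1*) and 0 in the difference from naive ganglia, where *Mchr1* had an adjusted p of 0.308.

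Of the gene list medians, 695 of 720 values stayed within the spread of libraries. Signs reversed for genes near 0. Over the fits that each left out 1 library the log2 fold changes ranged over both signs for *Ahr* (-0.1657 to 0.02605), *Arntl* (-0.08172 to 0.01882), *Atf3* (-0.08548 to 0.02289), *Jun* (-0.02192 to 0.1562), *Stat3* (-0.02778 to 0.01352), *Vegfa* (-0.1602 to 0.05711), *Syt1* (-0.08852 to 0.04823), *Scn9a* (-0.1032 to 0.03865), *Scn10a* (-0.2003 to 0.1017), *Calca* (-0.1147 to 0.1423) and *Tac1* (-0.1768 to 0.03306), and so did the differences from naive ganglia of *Thy1* (-0.01544 to 0.411) and *Cadps* (-0.07433 to 0.1806). With voom weights *Atf3* (0.001762), *Stat3* (0.009864) and *Calca* (0.05603) reversed, with 14 libraries *Stat3* (0.01651) and *Calca* (0.001555), and *Stat3* also without a filter (0.0066) and on FPKM (0.004788). The cause of these was not tested.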

Other observations

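Some of the largest fold changes belonged to genes of blood and secreted factors. *Fgf21*, a stress-induced hormone of the fibroblast growth factor family, had 0.162, 0.615 and 0.997 CPM in control and 1.74, 2.83 and 1.29 CPM in cKO, separate at a low level (log2 fold change 1.59, adjusted p 0.536). *Ighm*, the constant region of immunoglobulin M, had 6.68, 11.4 and 11.02 CPM in control and 40.6, 16.6 and 14.9 CPM in cKO (1.28), and the beta-globin gene *Hbb-bs* 4.41, 4.45 and 1.86 and 12.6, 10.98 and 5.37 CPM (1.45). Both were highest in cKO replicate 1, not in cKO replicate 2, where the innate inflammation genes were highest.

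Among the lower genes, *Pygm*, the muscle form of glycogen phosphorylase, had 4.09, 3.66 and 3.84 CPM in control and 2.53, 1.92 and 1.54 CPM in cKO (-0.95), and the sodium-chloride cotransporter *Slc12a3* 2.67, 7.27 and 6.996 and 2.23, 2.32 and 2.25 CPM (-1.35). The cKO libraries of *Slc12a3* lay within a narrow range, just under control replicate 1 and far under the other controls. Without control replicate 1 *Slc12a3* passed the threshold of the edgeR test (log2 fold change -1.655, adjusted p 0.0111). Solute carriers as a whole gave 20 higher and 9 lower of 307 at an unadjusted p under 0.05, and zinc finger genes 4 higher and 9 lower of 400 (median -0.0263), beside 4.15% higher and 3.85% lower over all genes. Among solute carriers the higher genes were 36 without control replicate 3 and 9 without cKO replicate 2, and among zinc finger genes the lower ones were 21 without control replicate 3 and 1 without cKO replicate 1.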
